A study of Mus musculus with 26 samples.

Results

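The genes described here encode the proteasome. They were taken by name, as every symbol that starts with Psm, has a letter from a to g and ends in a number. The count table and the untreated TPM table held 48 such genes of 25239, and each of the 4 tables of treated cells held 46, because Psmb8 and Psmb11 were absent there. Of the 48, 46 passed the filter on low values in each analysis, and Psmb8 and Psmb11 did not.

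The proteasome degrades proteins that carry ubiquitin chains. Its 20S core is a barrel of stacked rings, with alpha subunits forming the outer rings, which gate entry, and beta subunits forming the inner rings, which cut the protein. The 19S cap sits on the barrel, where its ATPases unfold the substrate and its other subunits bind and remove ubiquitin, and other activators can take the place of the cap. Each 20S particle holds the alpha subunits in equal number, in a fixed order in which the product of Psma5 lies between those of Psma7 and Psma1. Embryonic stem cells are known for high proteasome activity.

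The 26 RNA-seq libraries came from mouse embryonic stem cells, 12 wild type (WT) and 14 with a knockout of Hmces (HMCES-KO), a gene whose product binds abasic sites in DNA. The labels give strain C57BL/6 for every library and culture in serum medium on gelatin-coated plates, so WT and HMCES-KO share both. The 10 untreated libraries lay in a count table of 2 WT libraries and 2 from each of the knockout lines KO7 and KO8, and in a TPM table of 2 WT and 2 HMCES-KO libraries of unnamed line. TPM corrects a gene's reads for its length and sums to 1000000 in a library. The 16 treated libraries had received 1 agent for 2 h. Activin A (50 ng/ml) activates the Nodal/activin receptors, and SB431542 (10 µM) inhibits them. BMP4 (10 ng/ml) activates the BMP receptors, and LDN193189 (50 nM) inhibits them. Every agent had its own table, with 2 WT libraries and 1 HMCES-KO library from each of the lines KO1 and KO2. The labels do not say whether a line is 1 clone, nor how KO7 and KO8 relate to KO1 and KO2, nor whether replicates grew as separate cultures. The p-values therefore rest on library-to-library spread, which may be technical. The treated HMCES-KO libraries come from the lines KO1 and KO2 only, yet the fits take each of them as separate.

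Hmces RNA in the HMCES-KO libraries was 21.2% to 64.1% of the WT mean of the same table, and it was higher in KO1 than in KO2 in all 4 treated tables. Total counts were 9571113 to 13512922 per library in the count table. Reads recovered from TPM were 8524110 to 10037099 per untreated library and 4120162 to 5544415 per treated library. The 10 embryonic stem cell markers summed to 12400 to 27300 TPM in every library, over tables whose levels are not comparable. Single markers were called in both directions. Klf4 was lower in the count table mean (-0.56), in untreated TPM (-0.45) and in the treated mean (-0.73). Pou5f1 was higher in the count table mean (0.17) and in the treated mean (0.18). Tdgf1 was lower in the former (-0.54) and higher in the latter (0.78). In the count table all 13 endoderm markers tested were called lower in the mean of both knockout lines, and their summed TPM was 493 to 537 in WT against 259 to 263 in HMCES-KO. In treated cells 7 of 13 were called lower, and the endoderm sum was 95.3 to 158 TPM in WT and 55.7 to 108 in HMCES-KO, while with TPM in untreated cells 3 of 11 were called lower (340 to 358 against 261 to 265 TPM). Of all genes tested, 19.9% were called higher and 20.8% lower in the count table mean. The shares were 13.8% and 20.7% in the treated mean, and 5.8% and 10.2% with TPM in untreated cells. The defining markers Afp and Ttr were at 0 in some untreated libraries. Of 5 fibroblast markers tested with counts, 1 was higher and 3 lower, and of 4 leukocyte markers 1 was higher. The part of these marker differences in the results on proteasome genes was not tested. In bulk RNA, fewer cells of a type and less RNA per cell cannot be told apart.

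Psma5 lies on chromosome 3 at 108256926 to 108279952 of GRCm38 (mm10), on the plus strand. Its transcript resembles that of a processed pseudogene, Gm8394, annotated on chromosome 10 at 85313488 to 85314439. Of all 50-base words in the protein-coding transcripts of Psma5, 55.4% also occur in another annotated gene. The following 90 coding bases, which begin at base 26 of the open reading frame, are shown because a read within them can differ between gene and pseudogene at 1 base only, the one in capitals. That base differs as T53C, counted from the first base printed, with the gene's base first.
Psma5: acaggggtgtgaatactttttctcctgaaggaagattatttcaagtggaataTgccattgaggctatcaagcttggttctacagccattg
Gm8394: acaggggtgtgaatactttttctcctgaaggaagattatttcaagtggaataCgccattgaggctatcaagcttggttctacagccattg
Psmb3, a beta subunit without a catalytic site, shares 55.8% of its words with other genes, all of them within 7 pseudogenes. Its first 90 coding bases differ from those of the pseudogene AC114990.1 on chromosome 16 (21896506 to 21897116) as A78G and G80A.
Psmb3: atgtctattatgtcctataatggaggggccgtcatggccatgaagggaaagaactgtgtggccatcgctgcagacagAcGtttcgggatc
AC114990.1: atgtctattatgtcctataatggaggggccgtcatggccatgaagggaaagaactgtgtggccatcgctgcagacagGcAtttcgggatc
These sequences are from GENCODE M21, and neither pseudogene has a row in the tables used here.

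Psma5 was higher in HMCES-KO than in WT in each treated table. This rise was known when the genes were chosen, so its values are a description and carry no test. Under activin A, Psma5 was at 1.74 and 9.23 TPM in WT and at 30.9 and 36 TPM in HMCES-KO. Under SB431542 the WT libraries were at 9.62 and 7.3 TPM and the HMCES-KO libraries at 26.3 and 43.9 TPM. The 8 values of these tables show no overlap between genotypes. Under BMP4 the WT libraries were at 12.7 and 15.4 TPM and the HMCES-KO libraries at 37.9 and 37.4 TPM. Under LDN193189 the WT libraries were at 9.63 and 3.83 TPM and the HMCES-KO libraries at 42.5 and 27.7 TPM. The lowest HMCES-KO library was thus above the highest of the 8 WT libraries. These levels rested on 4 to 34 recovered reads per WT library and 69 to 109 per HMCES-KO library. The log2 difference ranged from 1.37 (SE 0.50) under BMP4 to 2.70 (SE 0.50) under activin A, on the scale of log2(TPM + 1). It averaged 2.07 (SE 0.25), which is 4.19-fold on that scale, and was 2.03 (SE 0.31) in KO1 and 2.11 (SE 0.31) in KO2.

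Untreated cells, which did not enter that choice, gave no call for Psma5. In the count table Psma5 had 15 and 14 reads in WT, 22 and 15 in KO7, and 11 and 17 in KO8. All 6 libraries overlap, and the log2 difference was 0.32 (SE 0.40) for KO7 and 0.13 (SE 0.42) for KO8, with edgeR adjusted p of 0.57 and 0.84. In the untreated TPM table the WT libraries were at 5.46 and 6.34 TPM and the HMCES-KO libraries at 4.02 and 11.1 TPM, or 17 and 40 reads. The WT values lay between those of the knockout, and the log2 difference was 0.18 (SE 0.40; limma adjusted p = 0.79). Without HMCES-KO replicate 1 of that table the difference was 0.81, and without HMCES-KO replicate 2 it was -0.46. In these fits the lone knockout library is assumed to vary like the WT pair, and the sign depended on which one was kept. Without WT replicate 1 the difference was 0.08, and without WT replicate 2 it was 0.27.

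**Figure D1:**
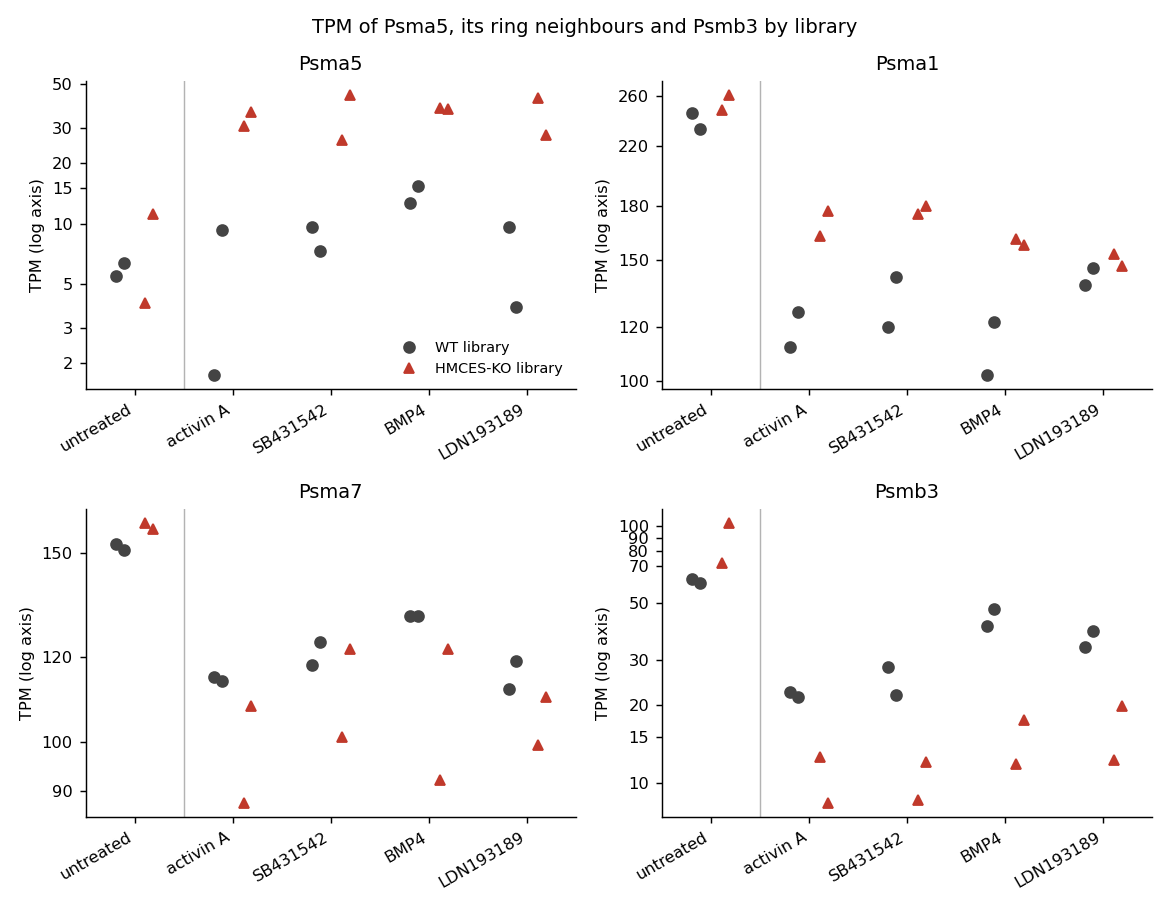
TPM (log axis) of Psma5, Psma1, Psma7 and Psmb3 in the untreated TPM table and in the 4 treated tables, with 1 point per library, circles for WT and triangles for HMCES-KO. In treated cells Psma5 was at 26.3 TPM or more in HMCES-KO and at 15.4 TPM or less in WT, Psma1 was higher with a smaller gap, Psma7 was lower or overlapped, and Psmb3 was lower. The vertical line parts untreated from treated tables, whose levels are not comparable.

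The level of Psma5 was also set against its ring. Relative to the geometric mean of the 6 other standard alpha subunits, Psma5 was at 1.96% to 6.82% in the 10 untreated libraries. It was at 2.07% to 16.5% of that mean in treated WT and at 22.3% to 41.2% in treated HMCES-KO, the same separation as in the levels. In treated HMCES-KO Psma5 lay below the geometric mean but above Psma3, which was at 2.09 to 5.92 TPM. The ratio is read within treated or within untreated tables only, because the partner mean includes Psma3, which was at 41.8 TPM in WT of the untreated TPM table and 2.12 TPM in treated WT.

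**Figure D2:**
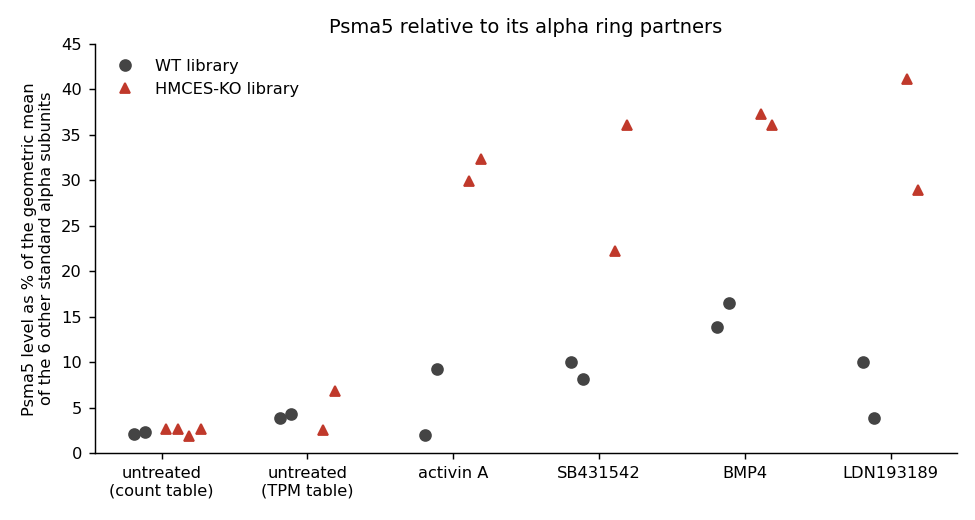
Psma5 level as a percentage of the geometric mean of the 6 other standard alpha subunits (Psma1 to Psma4, Psma6 and Psma7), with 1 point per library by table and genotype. The 8 treated HMCES-KO libraries sit between 22.3% and 41.2%, above the 8 treated WT libraries at 2.07% to 16.5%, and untreated and treated tables are not comparable on this axis.

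The alpha subunits that neighbour Psma5 in the ring did not share its rise in size, and they differed from each other in direction. Psma1 ranged from 102 to 146 TPM in treated WT (median 124) and from 147 to 180 TPM in treated HMCES-KO (median 162). All 8 HMCES-KO libraries, of the lines KO1 and KO2, were above all 8 WT libraries, and the mean log2 difference was 0.38 (SE 0.06; limma adjusted p = 0.0002). Psma7 ranged from 112 to 131 TPM in WT (median 118) and from 87.7 to 122 TPM in HMCES-KO (median 104). The groups overlapped, and the mean log2 difference was -0.20 (SE 0.07; limma adjusted p = 0.044), a call that was lost under TMM scaling of TPM (-0.15; limma adjusted p = 0.097). Leaving out any WT library or any KO1 library, 12 of the 16, also ended it (limma adjusted p from 0.06 to 0.11). Letting libraries of the same genotype and number correlate ended it too (-0.20; limma adjusted p = 0.062). The replicate block gave -0.32 (limma adjusted p = 0.0032), but that fit estimates KO1 against WT replicate 1 and is no check on the mean of both lines. In untreated cells Psma7 fell in KO7 (-0.27, SE 0.08; edgeR adjusted p = 0.0088) and was at -0.05 (SE 0.08; edgeR adjusted p = 0.66) in KO8, while Psma1 was called in neither.

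The other alpha subunits split in the treated mean. Psma3 rose by 0.61 (SE 0.16; limma adjusted p = 0.0097), from 1.55 to 3.43 TPM in WT to 2.09 to 5.92 TPM in HMCES-KO, with overlapping groups at low levels. Psma2 rose by 0.45 (SE 0.05; limma adjusted p = 3.4e-05), with WT libraries at 285 to 366 TPM and HMCES-KO libraries at 353 to 528 TPM. Psma4 fell by 0.27 (SE 0.06; limma adjusted p = 0.0026) and was lower, without overlap, in each of the 4 tables, as were 9.09% of all genes tested. Psma6 was at -0.02 (SE 0.05; limma adjusted p = 0.82) and Psma8, the form of the testis, at 0.44 (SE 0.18; limma adjusted p = 0.078). Without Psma5, 5 of 7 alpha genes were called, 3 higher and 2 lower (Psma4 and the unstable Psma7), with a median of 0.38, where 34.5% of all genes were called (13.8% higher, 20.7% lower). With so few genes this is a description.

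In the mean of the 4 treatments, 26 of 46 members were called at a limma adjusted p under 0.05, 10 higher and 16 lower, where 34.5% of the 12608 genes tested were called (13.8% higher and 20.7% lower). The median over the members was -0.01, against -0.04 over all genes tested. Scaling of TPM by TMM gave 14 higher and 13 lower, and for all genes 2137 higher and 2179 lower in place of 1737 and 2616. The 20S core had 5 members higher and 6 lower of 17 tested, and the 19S cap had 3 higher and 6 lower of 17. The 10 higher members and the 5 of the core both include Psma5, on which nothing is rested. Summed over all members, levels were 8670 to 10100 TPM in treated WT and 9280 to 10100 TPM in treated HMCES-KO, which overlap. By full separation of 8 against 8 libraries, 2 of 46 members (Psma5 and Psma1) were higher and 5 (Psmb3, Psmc1, Psmc4, Psmd8 and Psme3) lower, beside 2.33% and 4.69% of all genes tested. The rise of Psma5 in these libraries was known when the genes were chosen, so only Psma1 can be set beside the 2.33%.

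**Figure D3:**
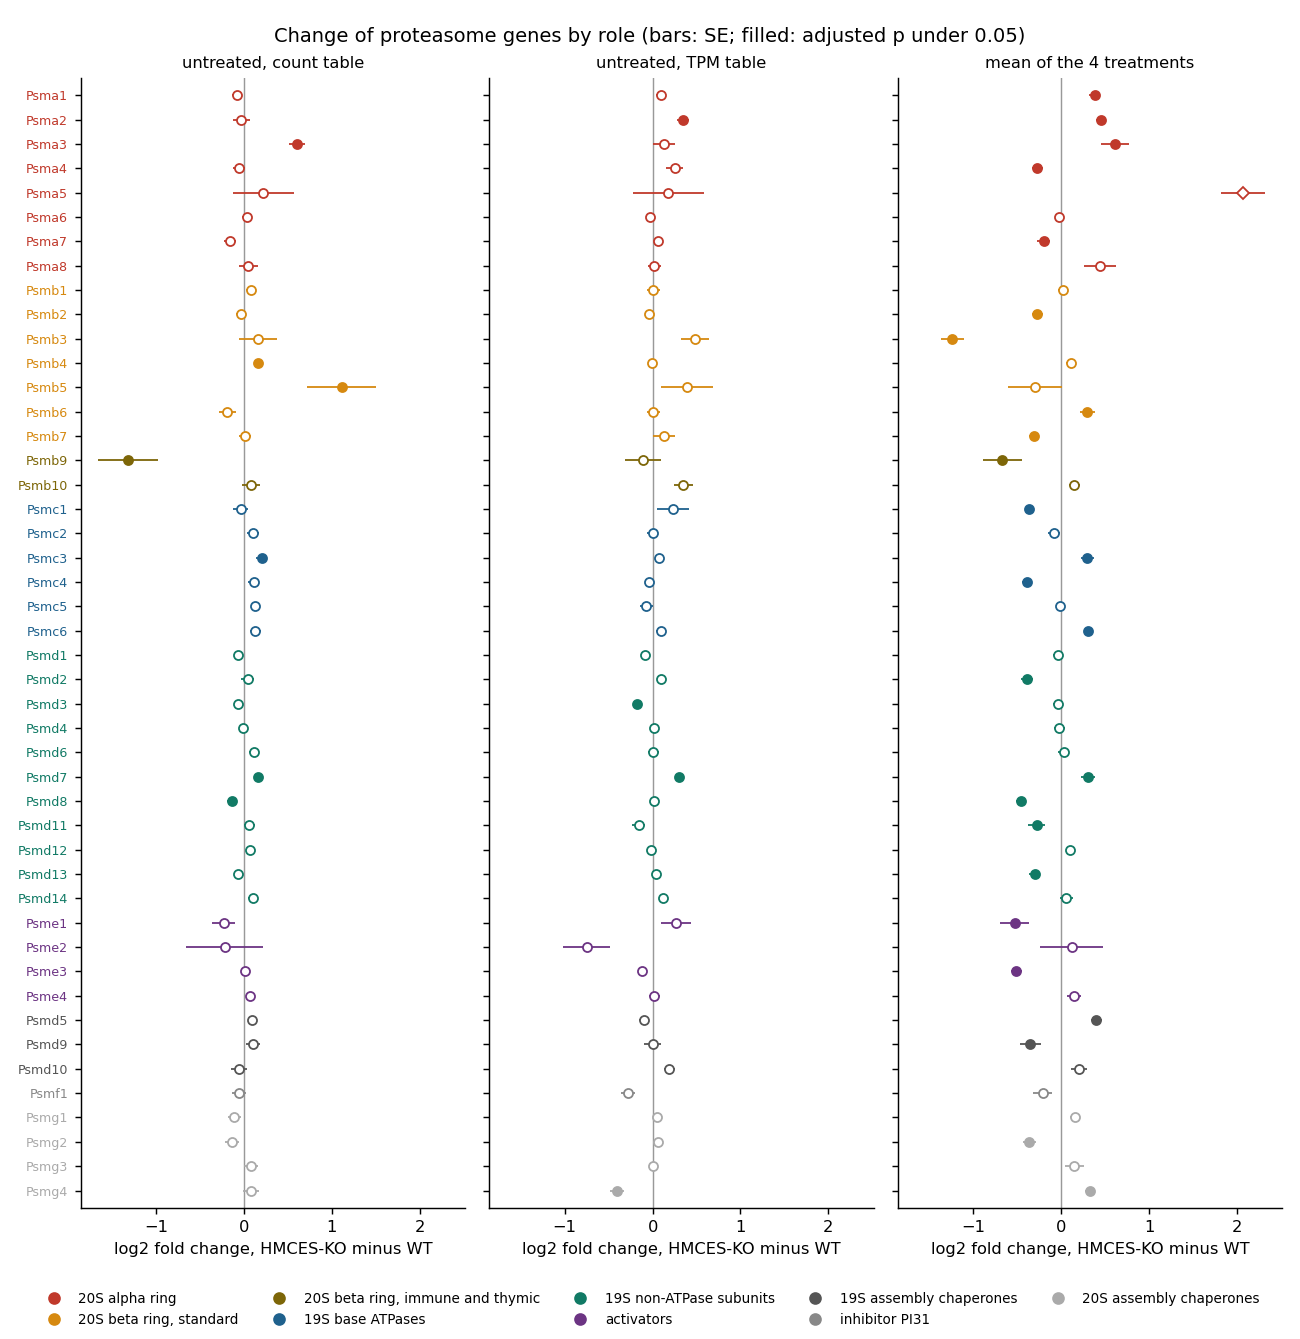
Log2 fold change of HMCES-KO minus WT with its SE for each of the 46 members tested, coloured by role, in untreated cells of the count table (mean of KO7 and KO8), in the untreated TPM table and in the mean of the 4 treatments. Filled points were called at an adjusted p under 0.05 (7, 4 and, with Psma5, 26 members), and the open diamond at 2.07 is Psma5 in treated cells, shown without a test.

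Among the standard beta subunits the change of Psmb3 was the largest of any member in the downward direction in all 4 tables. Psmb3 was at 21.5 to 47.7 TPM in treated WT (median 31) and at 8.32 to 19.9 TPM in treated HMCES-KO (median 12.2). No HMCES-KO library reached the lowest WT library, and the mean log2 difference was -1.24 (SE 0.13; limma adjusted p = 2.1e-05). It was called in each table, from -1.03 (SE 0.27; limma adjusted p = 0.026) under activin A to -1.55 (SE 0.27; limma adjusted p = 0.0069) under BMP4. No fall was called in untreated cells. Psmb3 had 45 and 63 reads in WT and 53 to 70 reads in the HMCES-KO libraries of the count table, and in the untreated TPM table it was at 62.4 and 60 TPM in WT and at 71.7 and 103 TPM in HMCES-KO. The latter difference was 0.48 on the log2 scale and was not called by limma, while edgeR on the recovered reads gave 0.55 (edgeR adjusted p = 0.0071), opposite to the treated tables.

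The catalytic subunits of the standard core moved separately. Psmb6, which carries the caspase-like site, rose by 0.30 (SE 0.09; limma adjusted p = 0.016) in the treated mean and fell in KO8 (-0.35, SE 0.12; edgeR adjusted p = 0.02). Psmb7, which carries the trypsin-like site, fell by 0.31 (SE 0.06; limma adjusted p = 0.0014) in the treated mean. Psmb5, which carries the chymotrypsin-like site, had 9 and 10 reads in WT, 28 and 15 in KO7, and 21 and 15 in KO8. Its 2 WT libraries were below the 4 HMCES-KO libraries, with log2 differences of 1.13 in KO7 (SE 0.43; edgeR adjusted p = 0.046) and 1.10 in KO8 (SE 0.45; edgeR adjusted p = 0.058). The KO7 call was lost with DESeq2 (adjusted p = 0.23) and with each of the 6 libraries left out in turn (edgeR adjusted p from 0.054 to 0.32). In treated cells Psmb5 was at 1.32 to 16.5 TPM in WT and 2.84 to 11.8 TPM in HMCES-KO, with a mean difference of -0.30 (SE 0.31; limma adjusted p = 0.49).

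The immunoproteasome subunits replace the catalytic ones in cells exposed to interferon. Psmb8 had 0 to 3 reads in each of the 10 untreated libraries and Psmb11, of the thymic form, 0 to 2. Psmb9 had 47 and 26 reads in WT, 20 and 7 in KO7, and 8 and 20 in KO8. Both WT libraries were above all 4 HMCES-KO libraries, and Psmb9 fell by 1.46 in KO7 (SE 0.41; edgeR adjusted p = 0.0081) and by 1.19 in KO8 (SE 0.41; edgeR adjusted p = 0.027). The KO7 call was lost with DESeq2 (adjusted p = 0.067) and without WT replicate 1 (edgeR adjusted p = 0.09) or KO7 replicate 2 (edgeR adjusted p = 0.11). With TPM in untreated cells it had 7 to 9 reads per library and was at -0.11 (SE 0.20; limma adjusted p = 0.74). In treated cells Psmb9 was at 2.07 to 5.49 TPM in WT and 0.77 to 3.89 TPM in HMCES-KO, and fell by 0.67 (SE 0.22; limma adjusted p = 0.032). Psmb10 was higher under activin A by 0.68 (SE 0.12; limma adjusted p = 0.0039) and was at 0.15 (SE 0.06; limma adjusted p = 0.083) in the treated mean, with overlapping groups at medians of 87.6 TPM in WT and 97.4 TPM in HMCES-KO. Psmb9 lies next to Tap1 and shares 9.7% of its words with other genes.

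In the count table the fall of Psmb9 stood beside lower antigen presentation genes, a list that includes Psmb9, Psmb10, Psme1 and Psme2. Of 15 tested, 1 was higher and 7 lower, Psmb9 among them, in the mean of both lines, beside 19.9% and 20.8% of all genes. H2-K1, a class I heavy chain, fell by 1.07 (SE 0.10; edgeR adjusted p = 8.5e-08), and the peptide transporter gene Tap2 by 1.31 (SE 0.45; edgeR adjusted p = 0.024). For untreated cells with TPM, B2m, the light chain of class I molecules, was higher by 0.52 (SE 0.07; limma adjusted p = 0.0091), where the count table gave -0.65 (SE 0.15; edgeR adjusted p = 0.0015). In the treated mean 2 of 15 were higher and 4 lower, beside 13.8% and 20.7% of all genes.

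Of the 19S ATPases, Psmc3 and Psmc6 rose and Psmc1 and Psmc4 fell in the treated mean. Psmc1 was at 240 to 260 TPM in treated WT and 171 to 216 TPM in treated HMCES-KO, and Psmc4 at 193 to 262 TPM and 156 to 186 TPM. Both pairs of groups are fully apart, with mean differences of -0.36 (SE 0.05; limma adjusted p = 0.00016) for Psmc1 and -0.39 (SE 0.05; limma adjusted p = 0.00014) for Psmc4. Psmc6 was higher in HMCES-KO, without overlap, in each of the 4 tables, as were 4.83% of all genes tested. Its mean difference was 0.31 (SE 0.05; limma adjusted p = 0.00075), and Psmc3 rose by 0.30 (SE 0.07; limma adjusted p = 0.0043). Psmc2 and Psmc5 were at -0.08 and -0.01 and were not called. In untreated cells Psmc3 rose as well, by 0.20 in the mean of both lines (SE 0.06; edgeR adjusted p = 0.014).

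Of the 11 non-ATPase subunits of the cap, 1 rose and 4 fell in the treated mean, beside 13.8% and 20.7% of all genes. Psmd8, a subunit of the lid, had 374 to 494 TPM in treated WT and 256 to 370 TPM in treated HMCES-KO, without overlap, and fell by 0.46 (SE 0.05; limma adjusted p = 2.1e-05). It was also lower in the mean of the untreated knockout lines, at -0.14 (SE 0.05; edgeR adjusted p = 0.035). Psmd2, a scaffold of the base that binds ubiquitin-like domains, fell by 0.39 (SE 0.07; limma adjusted p = 0.0012), Psmd13 by 0.30 (SE 0.06; limma adjusted p = 0.0015) and Psmd11 by 0.28 (SE 0.10; limma adjusted p = 0.042). Psmd14, the deubiquitinase of the lid, was at 0.06 and was not called. Psmd3, of the lid, fell by 0.18 in the untreated TPM table (SE 0.03; limma adjusted p = 0.021).

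Psmd7, partner of Psmd14 in the lid, was the member called in the same direction in the mean of both count table lines, in the untreated TPM table and in the treated mean, and no other member was called in all 3. In the mean of both count table lines it rose by 0.16 (SE 0.05; edgeR adjusted p = 0.011), a call lost without KO7 replicate 1 (edgeR adjusted p = 0.065) or KO8 replicate 1 (edgeR adjusted p = 0.059) and with the 4 HMCES-KO libraries as 1 group (edgeR adjusted p = 0.43). Its level differed between lines. In the count table Psmd7 was at 627 and 654 TPM in WT, 800 and 781 TPM in KO7, and 625 and 599 TPM in KO8. KO7 was above every other library, by 0.35 over WT (SE 0.05; edgeR adjusted p = 4.2e-05), while KO8 was at -0.03 (SE 0.05; edgeR adjusted p = 0.66), and the lines differed by -0.38 (SE 0.05; edgeR adjusted p = 1.7e-05). In the untreated TPM table it was at 625 and 627 TPM in WT and 763 and 776 TPM in HMCES-KO (0.30, SE 0.03; limma adjusted p = 0.0049). In treated cells it rose by 0.48 in KO1 (SE 0.05; limma adjusted p = 2.1e-06) and by 0.15 in KO2 (SE 0.05; limma adjusted p = 0.029), and KO2 was below KO1 by 0.33 (SE 0.06; limma adjusted p = 0.0016).

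Psmd7 lies on chromosome 8, as does Psmb10, an immunoproteasome subunit. Psmb10 had 364 and 350 reads in WT, 519 and 376 in KO7, and 243 and 332 in KO8. KO8 was below KO7 by 0.43 on the log2 scale (SE 0.11; edgeR adjusted p = 0.0069). The median of all tested genes on that chromosome moved in the same way. It was 0.26 in KO7 over 736 genes, -0.02 in KO8 and -0.31 between KO8 and KO7, and in treated cells 0.18 in KO1, 0.01 in KO2 and -0.19 between them over 696 genes. In the untreated TPM table it was 0.23. The part of the whole chromosome in the values of Psmd7 and Psmb10 was not tested.

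**Figure D4:**
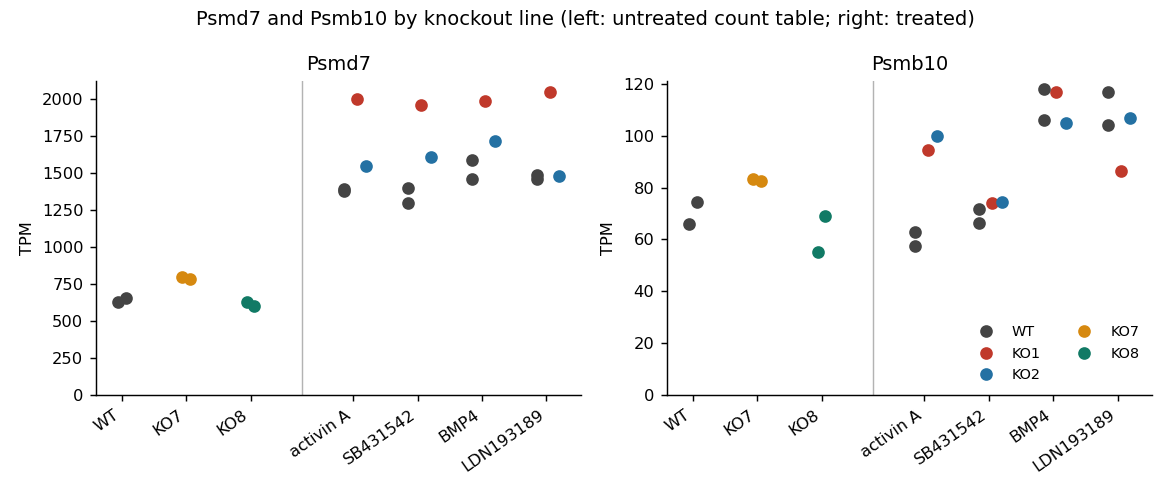
TPM of Psmd7 and Psmb10, with 1 point per library, coloured by line, for the count table on the left of each panel and the 4 treated tables on the right. KO7 (800 and 781 TPM) and KO1 hold the highest Psmd7 values of their tables, and Psmb10 is higher in KO7 than in KO8 but does not part KO1 from KO2.

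Of the activators, Psme1 and Psme2 encode the 11S regulator induced by interferon, Psme3 its nuclear relative and Psme4 a large single-chain activator. Psme3 was at 103 to 136 TPM in treated WT (median 111) and 64.3 to 101 TPM in treated HMCES-KO (median 78.1), without overlap. It fell by 0.51 (SE 0.06; limma adjusted p = 4.4e-05), and in untreated cells it was at -0.04 in KO7, 0.05 in KO8 and -0.12 in the TPM table, none of them called. Psme1 fell by 0.53 in the treated mean (SE 0.17; limma adjusted p = 0.025), with overlapping groups at 13.1 to 35.5 TPM and 12.6 to 20 TPM, and by 0.44 in KO7 (SE 0.15; edgeR adjusted p = 0.03). Psme4 was at 0.15 (SE 0.08; limma adjusted p = 0.19) and Psmf1, the inhibitor PI31, at -0.21 (SE 0.11; limma adjusted p = 0.15). Psme2 is uncertain, because the near-identical copy Psme2b held most of their reads, 694 against 18 in the first WT library of the count table. The summed level of the 4 activators, without Psme2b, was 144 to 183 TPM in treated WT and 104 to 134 TPM in treated HMCES-KO, most of it from Psme3. Psme2b alone had 880 to 1118 recovered reads per treated WT library and 1079 to 1422 per treated HMCES-KO library. Psme3 had 474 to 755 and 378 to 581. These reads are not scaled to library size, and a sum that includes Psme2b was not computed. The lower sum is therefore not read as a fall of the activators together.

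The assembly chaperones are not part of the finished particle. Psmg2, which with Psmg1 guides the alpha ring, fell by 0.36 in the treated mean (SE 0.07; limma adjusted p = 0.0017) and by 0.29 in KO7 (SE 0.10; edgeR adjusted p = 0.021). Psmg4, which works with Psmg3, rose by 0.33 in the treated mean (SE 0.06; limma adjusted p = 0.0013) and fell by 0.40 in the untreated TPM table (SE 0.08; limma adjusted p = 0.027). Its TPM in untreated cells was 126 and 108 in WT and 89.9 and 86.3 in HMCES-KO. Of the chaperones of the ATPase ring, Psmd5 rose by 0.40 (SE 0.06; limma adjusted p = 0.00037) and Psmd9 fell by 0.35 (SE 0.12; limma adjusted p = 0.038).

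By table, 12 of 46 members were called under activin A (9 higher, 3 lower), where 12.1% of all genes were called (5.1% higher, 7.03% lower). Under SB431542 14 were called (7 higher, 7 lower), also beside 12.1% (5.41% higher, 6.73% lower). Under BMP4 6 were called (2 higher, 4 lower) beside 6.33% of genes (2.13% higher, 4.2% lower), and with TMM scaling 3 were higher and 3 lower. Under LDN193189 3 were called (1 higher, 2 lower) beside 2.29% (0.793% higher, 1.5% lower). The replicate block called 5 there, in a fit that estimates KO1 against WT replicate 1. These counts include Psma5 where it passed, in 3 of the tables. The BMP4 and LDN193189 counts became 0 when each table was fitted alone. By line, 25 were called in KO1 (11 higher, 14 lower) beside 32.7% of genes (12.4% higher, 20.3% lower). In KO2 21 were called (9 higher, 12 lower) beside 28.9% (12.2% higher, 16.6% lower). Both counts include Psma5, and both lines were compared with the same 8 WT libraries. Between KO2 and KO1 2 were called, Psmd7 and Psma7, beside 6.58% of genes (3.89% higher, 2.7% lower). Psma7 was lower than WT in KO1 (-0.34, SE 0.06; limma adjusted p = 0.00034) and was at -0.06 (SE 0.06; limma adjusted p = 0.48) in KO2.

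For KO7, 9 of 46 members (19.6%) were called in untreated cells (5 higher, 4 lower) beside 38.2% of the 13475 genes tested (19% higher, 19.2% lower). For KO8 9 were called (6 higher, 3 lower) beside 38.9% (19.3% higher, 19.7% lower). The mean of both lines called 7 (5 higher, 2 lower) beside 40.6% (19.9% higher, 20.8% lower), and KO8 against KO7 called 11 (8 higher, 3 lower) beside 28.2% (13.9% higher, 14.3% lower). With upper quartile scaling KO7 gave 2 higher and 10 lower, the mean of both lines 2 higher and 3 lower, and KO8 against KO7 10 higher and 2 lower. Both lines share the WT libraries. Psma3 had 289 reads in each WT library, 568 and 389 in KO7, and 355 and 371 in KO8, and rose by 0.69 (SE 0.10; edgeR adjusted p = 3.1e-05) and by 0.51 (SE 0.11; edgeR adjusted p = 0.00092). No member was called in opposite directions in KO7 and KO8. Of members called in KO8 alone, Psmb4 rose by 0.26 (SE 0.06; edgeR adjusted p = 0.0012) and Psmc5, an ATPase, by 0.23 (SE 0.06; edgeR adjusted p = 0.007).

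Among untreated cells with TPM, 4 of 46 members were called beside 16% of the 13314 genes tested (5.8% higher, 10.2% lower), Psma2 and Psmd7 higher and Psmg4 and Psmd3 lower. Psma2 was at 71.2 and 73.1 TPM in WT and at 86.7 and 97.9 TPM in HMCES-KO, and rose by 0.35 (SE 0.07; limma adjusted p = 0.027). With TMM scaling 4 were higher and 1 lower (all genes 1130 and 941 in place of 772 and 1356), and edgeR on the recovered reads called 9. The 7 members called in the count table mean and the 26 in the treated mean had 5 in common (Psma3, Psmb9, Psmc3, Psmd7 and Psmd8), each in the same direction, which is 71.4% of the former and 19.2% of the latter. The 4 of the untreated TPM table and the treated mean had 3 in common, of which Psmg4 was opposed. Of all 46 members tested, 26 were called in the treated mean in any case. No share over all genes is given for these overlaps, so they are not read as a result about the members. Those pairs of comparisons have no library in common.

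No difference between agents was detected for these genes. No member was called by limma between activin A and SB431542 in WT (2 of 12608 genes called, 0.0159%) or in HMCES-KO (13 genes, 0.103%, of them 0.0872% higher), nor between BMP4 and LDN193189 in WT (4 genes, 0.0317%, of them 0.00793% lower) or in HMCES-KO (3 genes, 0.0238%). At an unadjusted p under 0.05 these comparisons held 1, 2, 5 and 1 members. No share over all genes at that threshold is given, so these counts are not read as a result about the members. No member was called by edgeR on the recovered reads either. Psma5 was at -0.03 (SE 0.50) between activin A and SB431542 and at 0.13 (SE 0.50) between BMP4 and LDN193189 in HMCES-KO. The difference between genotypes in response to the agents was called for 0 members by limma and by edgeR. It held 3 members at an unadjusted p under 0.05 for each pair of agents, again without a share over all genes. For Psma5 that difference was 0.80 (SE 0.71) for activin A against SB431542 and -0.94 (SE 0.71) for BMP4 against LDN193189. Treatment and table are the same split here, and each group had 2 libraries.

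The shared sequence of members can be set beside their change. The members with over 50% shared words were Psma5, Psmb3, Psmb5 and Psme2, at 2.07, -1.24, -0.30 and 0.12 in the treated mean, of which the value of Psma5 was known when the genes were chosen. Of 24 members tested at 0.0% shared words, 10 were called, beside 34.5% of all genes tested (13.8% higher, 20.7% lower). Of these 10, 4 were higher (among them Psma1, Psmc6 and Psmd7) and 6 lower (among them Psmc4, Psmd8 and Psme3). Of the 42 members tested at 50% or less, 24 were called. For Psma5 and Psmb3 the part of shared reads was not tested.

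**Figure D5:**
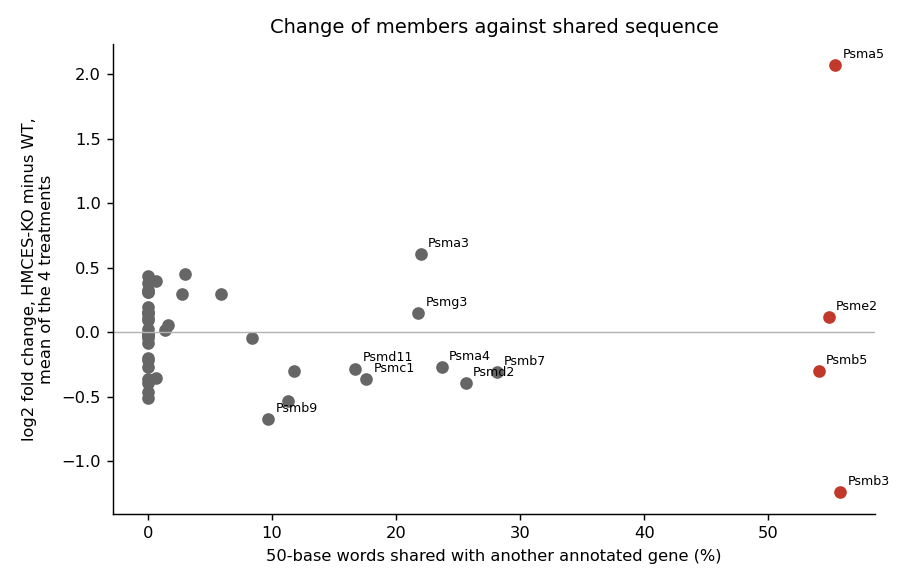
Share of a member's 50-base words that occur in another annotated gene (%) against its log2 fold change of HMCES-KO minus WT in the mean of the 4 treatments, with 1 point per member and those over 50% in red. Psma5 at 2.07 and Psmb3 at -1.24 stand at the ends of the vertical axis and both share over 50%, and members at 0% spread on both sides of 0.

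Among the genes next to Psma5 on chromosome 3, 1 was called higher and 1 lower in the treated mean, neither by as much as Psma5 rose. Over all genes tested, 13.8% were called higher and 20.7% lower. Sypl2, the nearest gene before Psma5, and Gm12522 after it were not tested in treated cells. Gnai3 fell by 0.57 in the treated mean (SE 0.08; limma adjusted p = 0.00017). Atxn7l2 was at 0.29 (SE 0.11; limma adjusted p = 0.054) and higher in KO1 by 0.48 (SE 0.10; limma adjusted p = 0.0015), with Amigo1 at -0.14 and Cyb561d1 at -0.13 on the same side of the gene. On the other side Sort1, the nearest, was at -0.11 (SE 0.16; limma adjusted p = 0.62), Psrc1 at 0.03 and Celsr2 at -0.34, and Sars rose by 0.19 (SE 0.05; limma adjusted p = 0.01).

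Proteasome genes are known to be induced together by the factor Nfe2l1 through antioxidant response elements, and many of their promoters carry CCAAT boxes. Promoter windows of 250 bases before to 50 after the start site were found for 40 of the members in RefSeq (GRCm38.p6), 43 windows in all. On either strand, TGACNNNGC occurred in 14% of these and in 12.4% of all 32851 windows, and CCAAT in 32.6% and 37.4%. The 250 bases before the start site of Psma5 and its ring neighbours are shown, because the products of these genes meet in the particle, with CCAAT on either strand in capitals. None of these 250 bases holds TGACNNNGC. Psma5 holds no CCAAT, Psma1 holds 2 and Psma7 holds 1.
Psma5, chr3:108256676-108256925, plus strand: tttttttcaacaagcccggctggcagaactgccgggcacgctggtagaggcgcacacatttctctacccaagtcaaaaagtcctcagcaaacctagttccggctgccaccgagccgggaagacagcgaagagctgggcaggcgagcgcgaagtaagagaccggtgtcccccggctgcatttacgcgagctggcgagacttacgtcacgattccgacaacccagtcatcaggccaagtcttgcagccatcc
Psma1, chr7:114276117-114276366, minus strand: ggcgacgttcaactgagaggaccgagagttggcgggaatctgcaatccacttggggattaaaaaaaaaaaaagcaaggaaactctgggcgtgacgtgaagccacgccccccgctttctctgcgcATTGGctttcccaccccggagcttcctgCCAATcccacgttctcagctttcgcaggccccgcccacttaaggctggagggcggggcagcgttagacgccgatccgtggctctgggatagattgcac
Psma7, chr2:180042465-180042714, minus strand: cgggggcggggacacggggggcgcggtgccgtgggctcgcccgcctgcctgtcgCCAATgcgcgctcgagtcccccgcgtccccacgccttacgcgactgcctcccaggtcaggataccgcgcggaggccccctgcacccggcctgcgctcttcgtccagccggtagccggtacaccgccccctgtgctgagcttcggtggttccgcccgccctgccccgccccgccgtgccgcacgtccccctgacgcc
A match describes letters only, and a window without one says nothing of the factor.

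Other genes of the pathway were described from lists, whose counts in the treated mean stand beside 13.8% of all genes called higher and 20.7% lower. Of 11 regulators of proteasome genes, 1 rose and 5 fell in the treated mean. The 1 that rose was Nfe2l2, at 0.29 (SE 0.05; limma adjusted p = 0.00076). In the count table mean 4 rose and 1 fell, beside 19.9% and 20.8% of all genes, with Nfe2l2 at 0.36 (SE 0.05; edgeR adjusted p = 2.9e-05). In the treated mean Nfe2l1 was at -0.08 (SE 0.05; limma adjusted p = 0.24). Ddi2, the protease that activates it, fell there by 0.50 (SE 0.09; limma adjusted p = 0.001). Nfyc, a subunit of the CCAAT-binding factor, fell there by 0.69 (SE 0.16; limma adjusted p = 0.0054). Of 12 tested genes linked to the proteasome outside the name rule, 4 rose and 1 fell. Uchl5, a deubiquitinase bound to the cap, fell by 1.01 (SE 0.09; limma adjusted p = 3.4e-06), and Adrm1, its receptor on the cap, rose by 0.38 (SE 0.13; limma adjusted p = 0.038), and fell by 0.77 in the untreated TPM table (SE 0.15; limma adjusted p = 0.023). Of 14 tested genes of ubiquitin supply and shuttles 6 rose and 5 fell in the treated mean, and Uba6, an activating enzyme of ubiquitin, fell by 0.61 (SE 0.15; limma adjusted p = 0.0073). Of 11 heat shock and proteotoxic response genes 4 rose and 3 fell in the treated mean, with Hsp90aa1 at 0.94 (SE 0.10; limma adjusted p = 1.6e-05) and Hspb1 at -0.89 (SE 0.08; limma adjusted p = 4.9e-06).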

How the data were processed

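Libraries were made with a TruSeq RNA kit, per the labels' protocols. The count table holds whole-number read-pair counts per gene, which the authors made with featureCounts 2.0.1 from exons summed by gene on an mm10 annotation, per the file headers. Its alignments had passed a filter whose settings are not stated there. The 5 deposited TPM tables were scaled by the authors to 1000000 per library, and the submitters' processing notes name Bowtie2 2.3.3 and SAMtools 1.9 without a role. Reads were not assigned by strand in the recorded command.

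Counts were tested with edgeR 4.0.16 (quasi-likelihood, TMM, filterByExpr; R 4.3.3). TPM were tested with limma 3.58.1 on log2(TPM + 1), keeping genes at 1 TPM or more in 2 or more libraries. The 16 treated libraries were fitted together over 12928 shared genes rescaled to the same sum. A gene was called at a Benjamini-Hochberg adjusted p under 0.05 over all genes tested. Fold changes on the log2(TPM + 1) scale understate changes of low genes. Whole reads were recovered from the TPM steps for 100% of values within 0.02 reads and were tested with edgeR, an alternative chosen after seeing the data. Implied gene lengths matched those of the count table within 5% for 13.1% of genes, so levels were not compared between treated and untreated tables. In simulated data, 76% of 2-fold changes were called for KO7, 88% for the mean of the 4 treatments and 70% under BMP4. Libraries varied independently there, unlike the real treated HMCES-KO libraries of the same line. For TPM the changes were placed in more highly expressed genes only, so Psma3 and Psmb9 at their treated levels lie outside it. Changes smaller than 2-fold were not simulated.

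Members and lists (proteasome-linked genes, regulators, ubiquitin supply, antigen presentation, heat shock, and stem cell, endoderm, fibroblast and leukocyte markers) were chosen with earlier results of these data known. Named were Psma5 and its ring neighbours, the catalytic and immune subunits, activators, Psmf1, Psma8 and Psmb11, the 3 called members with the largest rise and fall in each comparison, members called in both untreated lines and a TPM comparison, the 2 largest called genes of each other list (1 of them is not reported here), and the 5 tested genes on either side of Psma5. Other members are named to complete a role and were chosen after their values were seen. Same-numbered treated HMCES-KO libraries come from the same line, and their deviations correlated at 0.227 to 0.323 over 6 pairs of groups. The main treated fits took these libraries as separate, so p-values of the treated mean may be too small. A random block let libraries of the same genotype and number correlate. Under it 65 values of named genes kept their side of the threshold and 5 lost a call. Shared 50-base words were counted over GENCODE M21 transcripts. Alternatives were DESeq2 1.42.0, other scalings, filters and pseudocounts, limma without trend, the replicate block, the random block, tables fitted alone and each library left out. In treated cells the replicate block gives each genotype its own term for replicate 2, so its genotype contrasts stand for KO1 and WT replicate 1.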

Additional observations from a re-analysis of the deposited data

Results flagged for a closer look

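Between the untreated lines, 11 members differed in the edgeR test of KO8 against KO7. On the log2 scale Psmf1 was at 0.30, Psmg2 at 0.30, Psmg3 at 0.29, Psma7 at 0.22, Psmb4 at 0.20, Psmc5 at 0.20, Psmd14 at 0.20 and Psmb2 at 0.16, all higher in KO8. Psmb6 was at -0.33, Psmd7 at -0.38 and Psmb10 at -0.43, all lower in KO8. In treated cells KO2 differed from KO1 in the limma test for Psma7 (0.28) and Psmd7 (-0.33).

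Among the 4 untreated HMCES-KO libraries of the count table, 1 library stood apart for Psma2. On the log2 CPM scale its gap to the next library was 0.85 of the range, above Dixon's critical value for 4 samples, with 21.4 CPM in KO8 replicate 1 against 25.5 to 26.4 CPM in the others. Of the 46 groups of 4 examined, chance would flag about 1 in 20.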

How the results depend on the processing

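No call reversed its direction under any alternative run. Of 3866 values of named genes under alternatives, 3355 kept their side of the threshold, 472 lost a call and 39 gained one. DESeq2 called 2 members for KO7, 4 for KO8 and 3 between KO8 and KO7, and treating the 4 HMCES-KO libraries as 1 group left 1 member for the mean of both lines. For untreated TPM, 2 members were called with no filter, 0 with limma without trend and 9 with edgeR on recovered reads. Limma without trend called 6 members under SB431542, 2 under BMP4, 0 under LDN193189 and 1 between KO2 and KO1, where edgeR on recovered reads also called 1. Fitted alone, the BMP4 and LDN193189 tables called 0 members each. The replicate block called 8 for KO7, 10 for KO8, 4 in the untreated TPM table and 24 in the treated mean, and 5 under LDN193189. In treated cells this block estimates KO1 against WT replicate 1, so its counts there are no check on both lines together. In the count table same-numbered libraries correlated at -0.024 to 0.001, so they share only a number. With each library left out in turn, the members called ranged from 2 (without KO7 replicate 2) to 13 (without WT replicate 2) for KO7, 3 (KO8 replicate 2) to 14 (WT replicate 2) for KO8, 2 (KO7 replicate 1) to 13 (WT replicate 2) for their mean, and 2 (KO7 replicate 1) to 17 (WT replicate 1) for KO8 against KO7. The ranges were 1 to 13 in the untreated TPM table, where the 13 came without HMCES-KO replicate 1, 2 to 15 under SB431542, 0 to 5 under LDN193189, 5 to 14 under activin A, 1 to 9 under BMP4, 21 to 27 in the treated mean, 20 to 26 for KO1, 15 to 21 for KO2 and 1 to 3 between KO2 and KO1. Over all genes, DESeq2 called 3312 for KO7, 3286 for KO8, 3592 for their mean and 2305 between lines, and 1 group of 4 called 1552. In the untreated TPM table all-gene calls were 1311 with no filter, 339 without trend and 3587 with edgeR on recovered reads. Under BMP4 they were 443 without trend, 1382 with the replicate block and 41 with the table alone, and under LDN193189 86, 811 and 1. The cause was not tested. Low reads limit Psma5, Psmb5, Psmb9 and Psme2.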
